A study of Mus musculus with 4 samples.

Results

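Itga6 carried 12 of the 428 coding variants listed for the mouse melanoma line YUMM 1.1, and 0 variants in each of the other 3 lists of the series. Its members are the rows with the gene symbol Itga6 in the 4 tables, out of 1844 distinct changes in 1555 gene symbols over the series. The gene was chosen by its number of variants in the YUMM 1.1 list, so that count is a description and has no test. The next gene by that count, Zscan4c, had 5.

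The exome, that is the protein-coding part of the genome, was captured and sequenced in 1 library for each of 4 tumour lines: YUMM 1.1, YUMM 1.3, UV YUMM 1.1-9 and MB49. YUMM lines are known as melanoma lines from mice engineered with an activated Braf allele, among other changes. By its name and the heading of its table, UV YUMM 1.1-9 is an ultraviolet-treated derivative of YUMM 1.1, and MB49 is known as a male bladder carcinoma line. The sample labelled 49XC-49 was taken for MB49 by elimination. The labels give every sample the source mouse tumours, while the extraction protocol speaks of DNA from cell lines and does not name YUMM 1.3. The labels also describe host mice given tamoxifen to delete the autophagy gene Atg7, without stating whether any sequenced DNA came from a tumour grown in them. They give no age or passage number. The YUMM 1.1 list held a median of 70 reads per site, against 107 in YUMM 1.3, 45 in UV YUMM 1.1-9 and 59 in MB49. With 1 library per line there are no replicates, and intervals and tests below cover counting error only.

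Itga6 encodes the alpha 6 subunit of the integrins, receptors that span the cell membrane and are built of 1 alpha and 1 beta chain. Paired with the beta 1 or the beta 4 chain, alpha 6 binds laminins, the main adhesive proteins of basement membranes, and with beta 4 it anchors epithelial cells in hemidesmosomes. The extracellular part starts with a folded head, the beta-propeller, which contributes to ligand binding, and continues as a leg towards the membrane. The gene lies at chromosome 2, 71786886 to 71858427, in GRCm38, the assembly also called mm10 (RefSeq annotation, 71542 bases).

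All 12 Itga6 variants were single-base changes in coding sequence, with 8 missense and 4 synonymous changes and 0 stop gains. They stretched over 29303 bases, from position 71816749 to position 71846052, and over codons 101 to 953. The codon of each change, which is the only surrounding sequence the tables hold, is given here 5′ to 3′ as deposited, with the changed base in capitals. The alternative reads out of all reads at a site give the allele fraction, shown with its exact (Clopper-Pearson) 95% interval.

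The most upstream change, N101S at 71816749, altered codon aAt to aGt and had 13 of 80 reads, an allele fraction of 16.2% (8.95 to 26.2). The synonymous change at 71826444 altered the valine codon 347 from gtC to gtA in 28 of 111 reads, or 25.2% (17.5 to 34.4). Another synonymous change lay 123 bases further on, at 71826567, where the asparagine codon 388 went from aaC to aaT in 11 of 73 reads, or 15.1% (7.77 to 25.4). None of these was classed as damaging by SIFT, a predictor that scores a residue change by its conservation among related proteins and calls scores under 0.05 deleterious; N101S scored 0.12 and synonymous changes have no score. G453D at 71827984 introduced an acidic residue, by codon gGc to gAc. It had 7 of 51 reads, the lowest allele fraction of the gene at 13.7% (5.70 to 26.3), and its SIFT score of 0 was deleterious.

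The middle of the series was the densest, with 5 missense changes in the 126 residues from 564 to 689, spread over 2473 bases of the genome. E564K at 71838408, codon Gag to Aag, exchanged an acidic for a basic residue and had the highest allele fraction of the gene, 14 of 46 reads or 30.4% (17.7 to 45.8), with a tolerated SIFT score of 0.86. K613R at 71838705, codon aAa to aGa, kept the positive charge. It had 8 of 56 reads, or 14.3% (6.38 to 26.2), with a tolerated SIFT score of 0.15. E564K and K613R lay 297 bases apart in the genome. L638V at 71840619, codon Cta to Gta, had 19 of 87 reads, or 21.8% (13.7 to 32.0), and V665L at 71840808, codon Gtc to Ctc, had 9 of 45, or 20% (9.58 to 34.6). Both exchange leucine and valine, hydrophobic residues of like size, in opposite directions, and both were tolerated, with scores of 0.07 and 0.25. R689W at 71840880, codon Cgg to Tgg, replaced arginine by the bulky tryptophan in 18 of 62 reads, or 29.0% (18.2 to 41.9), and was the other change called deleterious, also with a score of 0.

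Downstream, the synonymous changes at 71843257 and 71843272 lay 15 bases apart. The glutamine codon 878 went from caG to caA in 13 of 61 reads, or 21.3% (11.9 to 33.7), and the proline codon 883 from ccA to ccT in 9 of 38, or 23.7% (11.4 to 40.2), the site with the fewest reads. R953H at 71846052, codon cGt to cAt, was the most downstream change and the most deeply read, with 41 of 168 reads, or 24.4% (18.1 to 31.6), and a tolerated score of 0.31. No Itga6 site of YUMM 1.1 was supported by fewer than 7 alternative reads, while the list itself goes down to 5.

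**Figure D1:**
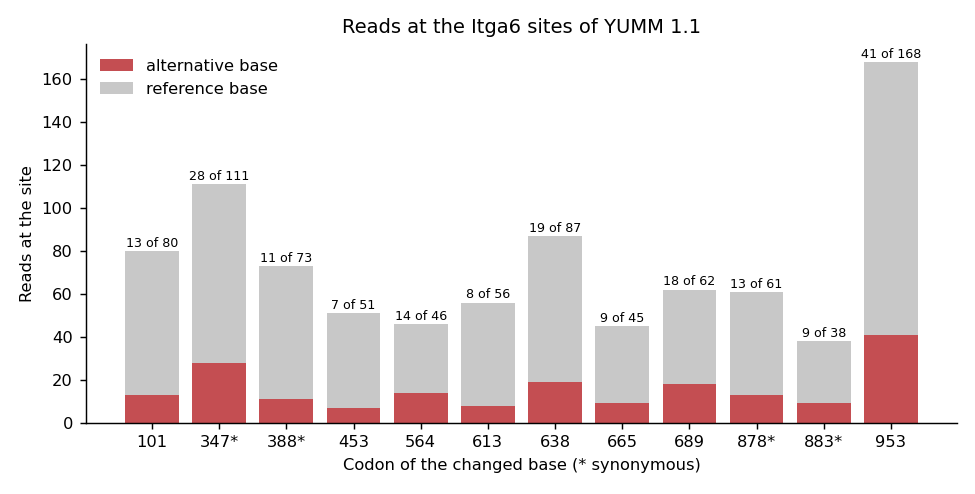
Reads with the alternative base (red) and the reference base (grey) at each of the 12 Itga6 sites of YUMM 1.1, stacked from 0 and ordered along the gene by codon, with an asterisk for synonymous changes. The reference base made up most reads at every site, and total depth ran from 38 reads at codon 883 to 168 at codon 953.

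The sites did not fall in a single exon. Distances between neighbouring sites in the genome and in the cDNA were compared, since 2 sites in the same exon are equally far apart on both scales. By that measure the 12 sites occupied 9 exons, 3 of them with 2 sites and 6 with 1. The same-exon pairs were codons 347 and 388, codons 665 and 689, and codons 878 and 883, at 123, 72 and 15 bases. Only these 3 neighbouring pairs were closer than the read length of 151 bases, and the tables do not state which alternative bases were seen on the same read. Between the other neighbouring sites lay 108 to 10092 bases of intron sequence. Each site lay 200 bases further along in the cDNA than in the coding sequence, as on 1 transcript throughout.

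The changed bases were spread over the codon, with 4 sites at each of its 3 positions. Every change at the last codon position was synonymous and every other change was missense. Protein-changing variants made up 8 of 12, or 66.7% (exact interval 34.9 to 90.1), beside 291 of the 416 other variants of the list, or 70%. Of the 8 missense changes, 2 were called deleterious by SIFT, or 25% (3.19 to 65.1), beside 106 of 242 with a SIFT class in the rest of the list, or 43.8%. Both intervals contain the value of the rest of the list.

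By the pyrimidine of the changed base pair, C>T was the leading class, with 6 of the 12 changes, or 50% (21.1 to 78.9), while it made up 87 of the other 416, or 20.9%. The remaining Itga6 changes were 2 T>C (N101S and K613R), 2 C>G (L638V and V665L), 1 C>A and 1 T>A, and 0 were T>G. Transitions, the changes within purines or within pyrimidines, thus numbered 8 of 12, or 66.7% (34.9 to 90.1), beside 171 of 416, or 41.1%, in the rest. The interval of the transitions includes the share of the rest, and that of C>T starts just above it; with 12 sites both are wide, and the differences from the rest of the list were not tested. Within the codon, 2 of the 6 C>T changes, R689W and R953H, fell in a CG dinucleotide, the site where methylated cytosine is known to mutate readily. The same count was not made for the 87 other C>T changes of the list, and a link to methylation was not tested. The base across a codon boundary is not shown in the tables.

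The allele fractions of the gene spanned 16.7 percentage points. Their median was 21.6% (range 13.7 to 30.4), with 20.9% over the 8 missense and 22.5% over the 4 synonymous sites. Added up, 190 of 878 reads carried the alternative base, or 21.6% (exact interval 19.0 to 24.5). The interval of each of the 12 sites contains that pooled value, which is made of the same reads. So does the interval of every other chromosome 2 site of the list, so this was not particular to Itga6. Across the 12 sites, which share the library, Pearson's r of allele fraction and depth was 0.144. Other variants of the list had a median of 25% (interquartile range 16.7 to 33.8, range 10 to 72.5), and 219 of the 416, or 52.6%, lay inside the Itga6 range.

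**Figure D2:**
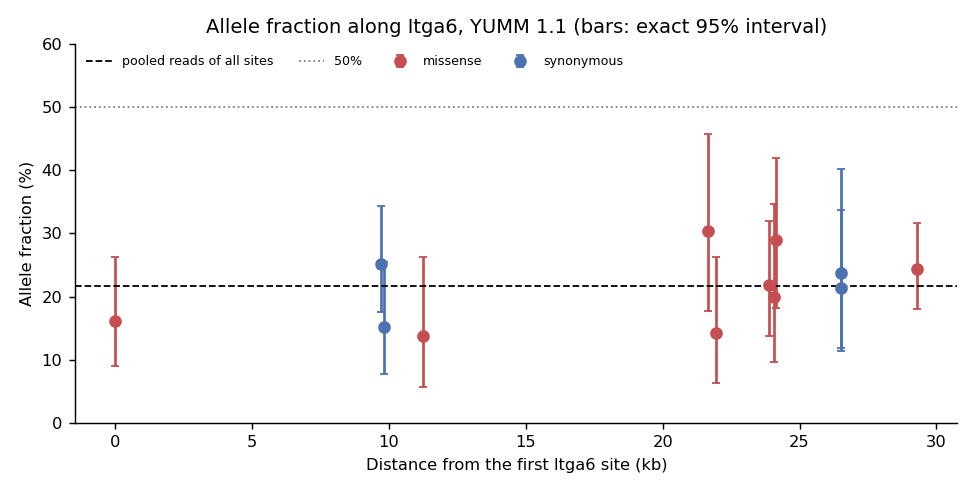
Allele fraction in percent of each Itga6 site of YUMM 1.1 (points, red missense and blue synonymous) with exact 95% intervals, against distance in kb from the first site. The dashed line marks the 21.6% of all Itga6 reads, which every interval includes, and the dotted line marks 50%, which every interval stays below.

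To see whether sites differed beyond counting error, the reads of every pair of sites in the YUMM 1.1 list were compared by Fisher's exact test, adjusted over all 91378 pairs. Among the 66 pairs of Itga6 sites 0 differed, while 25.6% of all pairs of the list did. Unadjusted, 0 of the 66 had an exact p under 0.05, and 4 did by a chi-square test. The widest gap, G453D against E564K, was 16.7 percentage points (Newcombe 95% interval 0.191 to 32.7, Fisher's exact test, adjusted p = 0.145). Differences of that size are therefore not resolved at these depths, and the test does not show that the sites are equal. Sites with more reads resolve smaller differences, so pairs without Itga6 whose depths both lay between 38 and 168 reads were counted too: 6457 of 28441 differed, or 22.7%, and 18.9% where both sites were also in no other list. Of pairs of other chromosome 2 sites at those depths, 8 of 253 differed, or 3.16%, so few differences among sites were not particular to Itga6. Among pairs of sites within any other single gene, 31 of 104 differed, or 29.8%. These pairs were taken at any depth and with shared sites kept, so they are not matched to Itga6. Of the 6 pairs within Ttn, a gene on the same chromosome, 0 differed.

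At a heterozygous site present in all cells of a diploid line, about 50% of reads are expected to carry the alternative base. Every Itga6 site lay below that value by an exact binomial test adjusted over the 428 sites (adjusted p from 8.73e-11 at R953H to 0.0158 at E564K). Of the whole list, 79.7% of sites were below 50% by the same test, so the 12 of 12 sites of Itga6 stand beside a high background. E564K did not pass against a reference of 45% (exact binomial test, adjusted p = 0.0732). A small share of cells carrying a variant and a small share of the gene copies in every cell cannot be told apart from these read counts.

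Chromosome 2 held 42 sites of the YUMM 1.1 list, and Itga6 made up 28.6% of them. The other 30 had a median allele fraction of 23.1% (interquartile range 17.5 to 26.8, range 11.9 to 39.3), and 28 of them were below 50% by the exact binomial test. Of 360 pairs of an Itga6 site and another site on chromosome 2, 0 differed by Fisher's exact test (smallest adjusted p = 0.0506), and 27 had an unadjusted exact p under 0.05. Of 4632 pairs of an Itga6 site and a site on another chromosome, 782 differed, or 16.9%. With the other site also at 38 to 168 reads, the counts were 0 of 276 on chromosome 2 and 355 of 2592, or 13.7%, elsewhere. Sites also in another list were kept in these counts, and all other chromosomes are given together. Pairs share sites and are not independent, and these counts are given without a test of their difference.

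**Figure D3:**
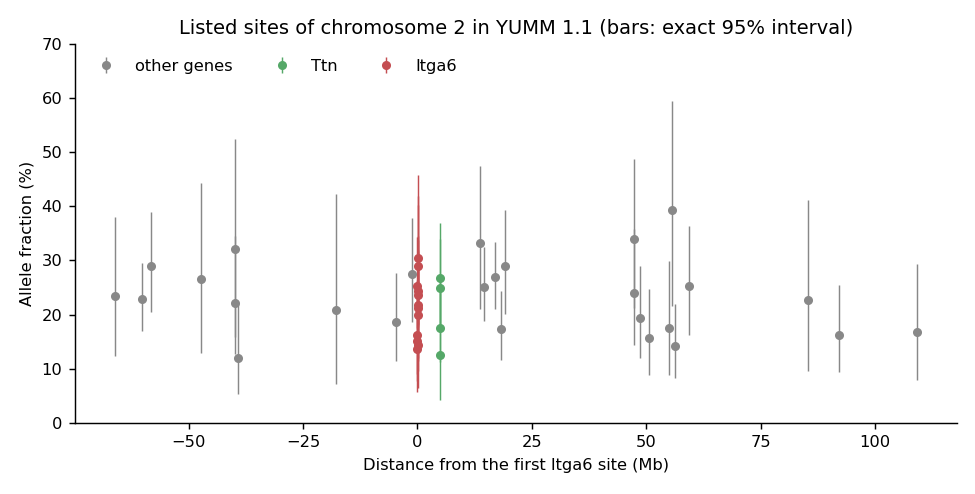
Allele fraction in percent, with exact 95% intervals, of the 42 chromosome 2 sites in the YUMM 1.1 list against distance in Mb from the first Itga6 site; Itga6 is red, Ttn green and all other genes grey. The 12 Itga6 sites stand together at 0 between 13.7% and 30.4%, inside the range of 11.9% to 39.3% of the other 30 sites.

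No variant of YUMM 1.1 was listed in the genes next to Itga6. Of the 14 other protein-coding genes within 1 Mb of Itga6 in the RefSeq annotation, 0 had a variant in YUMM 1.1. These include the nearest neighbours, Dlx2, a homeobox gene ending 240132 bases before Itga6, and Pdk1, a kinase that inhibits pyruvate dehydrogenase, starting 14788 bases after it. The nearest other YUMM 1.1 variant upstream was K206R in Erich2, 1294255 bases before the first Itga6 site, with 25 of 91 reads, or 27.5% (18.6 to 37.8). The nearest downstream were in Ttn, the gene of the giant muscle protein titin, from 4886331 bases after the last site. Within 5 Mb on either side YUMM 1.1 had 5 variants outside Itga6, in Erich2, Gm1322 and Ttn.

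The other lists, with 0 variants in Itga6, had different numbers around it. Within the same 5 Mb, MB49 had 9 variants in 8 genes, UV YUMM 1.1-9 had 4 in 3 genes, and YUMM 1.3 had 0, with 7 sites on the whole of chromosome 2. In MB49 the nearest were L225I in Zak, a stress-activated kinase, 538082 bases after the last Itga6 site with 37 of 79 reads, and a synonymous change in Cdca7, 639168 bases after it with 15 of 60. A synonymous change in Mettl8 lay 834717 bases before the first site, with 9 of 19 reads, and Q501H in Sp3, a zinc finger transcription factor, 1124245 bases after the last, with 41 of 126. The tables list only sites that were called, so the depth at the Itga6 positions in YUMM 1.3 and MB49 is unknown and absence from their lists is not a measured 0. The UV YUMM 1.1-9 table holds only changes additional to YUMM 1.1. An Itga6 variant carried over from YUMM 1.1 would be left out of it, so its list says nothing on whether that line has the 12 changes.

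Of 344 gene symbols in the YUMM 1.1 list, 294 had 1 variant, 31 had 2 and 19 had 3 or more. Itga6 had 0 of its 12 sites in any other list, and the 5 sites of Zscan4c, the 4 of Ttn and the 3 of Vmn2r32 were not shared either. Most sites outside Itga6 were also in no other list, 308 of 416, so this was not particular to these genes. Any site carried over from YUMM 1.1 would be left out of the UV YUMM 1.1-9 list. Absence from that list therefore says nothing on sharing for any of these genes. After Itga6 and Zscan4c, a gene of early embryos, came Cdh11, a cadherin, Gm15433 and LOC100038947 with 4 each, of which 3, 3 and 4 sites were shared. No other window of 30000 bases in the YUMM 1.1 list, away from Itga6, held more than 5 variants. That width is just above the 29303 bases spanned by the Itga6 sites, and the gene was chosen by its count. The window counts are therefore a description only. The fullest windows of the other lists held 8 in MB49, over Hjurp and Mroh2a, 5 in YUMM 1.3 and 3 in UV YUMM 1.1-9. The lists do not all start at the same values, which limits this comparison. UV YUMM 1.1-9 went down to 3 alternative reads and an allele fraction of 3.62%, and YUMM 1.1 to 5 reads and 10%.

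Among the genes with at least 3 variants and none shared, Ttn was closest to Itga6 in median allele fraction, at 21.2% over 4 sites against 21.6% over 12. Its sites had 29 of 116, 5 of 40, 24 of 90 and 22 of 126 reads, or 25%, 12.5%, 26.7% and 17.5%. They lay on the same chromosome but 117944 bases apart from first to last, in a gene of 278578 bases. The 4 fractions spanned 14.2 percentage points, and 0 of the 6 pairs of Ttn sites differed (Fisher's exact test, smallest adjusted p = 0.246; 0 with an unadjusted exact p under 0.05). Of 48 pairs of an Itga6 and a Ttn site 0 differed (Fisher's exact test, smallest adjusted p = 0.153; 0 with an unadjusted exact p under 0.05). Next came Zscan4c, with a median of 18.2% over 5 sites. There R110K stood at 58.1% (44.8 to 70.5) and the other 4 between 11.8% and 18.2%, and 4 of the 10 pairs differed by the same exact test. Vmn2r32, a vomeronasal receptor gene, followed with 29.0% over 3 sites, which had 13 to 38 reads.

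**Figure D4:**
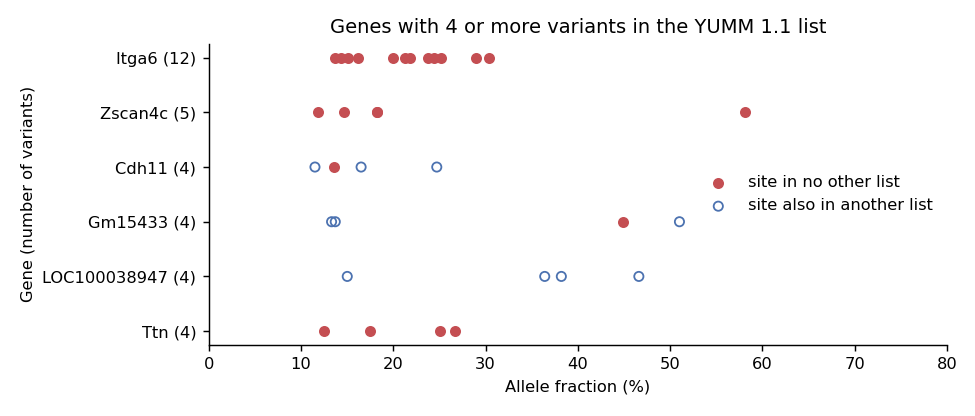
Allele fraction in percent of each variant in the 6 genes with 4 or more variants in the YUMM 1.1 list, with the number of variants after the gene symbol; filled red points are sites in no other list and open blue points are sites also listed for another line. Itga6 has 12 filled points between 13.7% and 30.4% and no open point, and Ttn has 4 filled points between 12.5% and 26.7%.

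Partners of Itga6 were looked up in lists of 26 integrin subunits, 15 laminins and other basement membrane genes, 9 hemidesmosome and tetraspanin genes and 22 focal adhesion adaptors. In YUMM 1.1, 1 other integrin subunit had a variant: E760Q in Itga2, the alpha chain of a collagen receptor, with 14 of 45 reads, or 31.1% (18.2 to 46.6), and a tolerated SIFT class. The beta chains that pair with alpha 6, Itgb1 and Itgb4, had no variant in any list, nor had Itga3 and Itga7, the other laminin-binding alpha chains most like it. Of the basement membrane genes YUMM 1.1 had a change in Lama2 alone, the laminin alpha 2 chain of muscle and nerve: T2366K, called deleterious, with 30 of 147 reads, or 20.4% (14.2 to 27.8). It had 0 variants in the hemidesmosome and adaptor lists, and YUMM 1.3 had 0 in all 4 lists.

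Lama2 was the only one of these 72 genes with a variant in more than 1 list. In MB49 it carried M2833I with 31 of 52 reads, and in UV YUMM 1.1-9 the stop gain Q242* with 5 of 34 reads, where YUMM 1.1 had 0 alternative reads of 43. The latter line also had F1690S in Lama5, the laminin alpha 5 chain, with 4 of 34 reads. A synonymous change in Cd151, a tetraspanin that binds laminin-binding integrins, had 9 of 54, another in the keratin gene Krt5 had 3 of 45, and K525N in Fermt1, the integrin activator kindlin-1, had 6 of 62. MB49 had H296L in the integrin chain Itgb5 with 12 of 45 reads and V1085A in Tns3, a tensin of focal adhesions, with 16 of 31. Its changes in Actn4, an actinin, and Ptk2, the focal adhesion kinase, were synonymous. Besides Itga6, 10 of the other 71 genes had a variant in any list, or 14.1%, with 12 variants in all, of which 8 changed the protein. Of all 21900 RefSeq protein-coding gene symbols 1451 had one, or 6.63%, matched by current symbol alone and with no account of gene length; the difference was not tested.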

How the data were processed

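Exome capture used Agilent's SureSelect Mouse All Exon kit, with paired reads of 151 bases and a stated mean depth of 80X, per the labels' protocols. Per the submitters' processing notes, BWA 0.7.5a, GATK, Picard, SAMtools, FastQC and the build mm10 were used, without their roles. The variant caller, its filters and any removal of duplicate reads were not given in the sources used here. The deposited read counts per site are whole numbers with no normalization, per the file headers.

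Repeats of a position and new base were counted once (1 row of YUMM 1.1, not in Itga6). Pairs of sites were compared by Fisher's exact test and sites with 50% by an exact binomial test (Python 3.11.15, pandas 2.3.3, scipy 1.17.1), two-sided, with Benjamini-Hochberg adjustment over the whole YUMM 1.1 list and a threshold of 0.05, and differences were given Newcombe intervals (statsmodels 0.14.6). The tests were tried on simulated data first. Reads without molecular identifiers are not independent molecules. Genes named besides Itga6 are the next 4 by count, up to 3 with at least 3 unshared variants and the closest median allele fraction, the nearest within 5 Mb, and list genes with a variant. Dlx2, Pdk1, Erich2, Gm1322, Hjurp, Mroh2a and list genes without a variant were added after values were seen. The gene and the lists were chosen with earlier results of these data known. Some genes are not reported here. A planned comparison with the RefSeq proteins of Itga6, Itga3 and Itga7 was not run, since no protein sequence was used here.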

Additional observations from a re-analysis of the deposited data

How the results depend on the processing

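Itga6 had the most variants of any YUMM 1.1 gene under each of 6 alternatives, and it was chosen by that count. It had 8 when only protein changes, only allele fractions of at least 20% or only sites with at least 10 alternative reads were counted. It had 12 with repeated rows kept, with changes within 2 bases joined, or without sites in another list (added after the data were seen). The alternatives that gave 12 could not change its count, since no Itga6 row was repeated or shared and no 2 sites lay within 2 bases. Its median allele fraction ran from 20.9% (protein changes) to 21.6% over 3 alternatives. Of its site pairs 0 differed with a chi-square test, at depths of at least 50 reads (36 pairs), without shared sites or with Benjamini-Yekutieli adjustment, while the share over the whole list ranged from 13.5% to 38.3%. All 12 sites were below 50% without shared sites and all 9 with at least 50 reads, but 11 of 12 with Benjamini-Yekutieli adjustment (exact binomial test, adjusted p = 0.105 for E564K) and 11 of 12 against 45%. Depths of 38 to 168 reads leave intervals of 13.5 to 28.8 percentage points per site. No paired analysis was possible because each line has 1 library.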
